A study of Mus musculus with 10 samples.

Results

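The genes described here encode the proton pump, the proteases and the main membrane glycoproteins of the lysosome, the acidic compartment in which cells break down protein, lipid and sugar. They were taken by symbol: every gene whose symbol starts with Atp6v, every gene whose symbol is Lamp followed by a digit, and every gene whose symbol is Cts followed by 1 letter or digit. For each gene the probe set brightest on average across the 10 arrays was used, among those annotated to that gene alone. This gave 45 genes of the 18193 measured, 12 subunit genes of the V1 sector of the V-ATPase, 8 of its V0 sector, 22 cathepsin genes and 3 LAMP genes. Of the 49 protein-coding genes of the mouse gene table whose symbols meet the rule, 4 had no probe set annotated to them alone and are not analysed here: Atp6v0c, Atp6v1fnb, Atp6v1g3 and Lamp3.

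The V-ATPase is a rotary pump. Its V1 sector on the cytosolic side splits ATP, and its membrane-embedded V0 sector passes protons into the lysosome, which gives the acid that cathepsins need to mature and work. LAMP proteins coat the inner face of the lysosomal membrane. In the epidermis, lysosomes and the related lamellar granules serve the turnover and secretion that accompany cornification, and cathepsin D and cathepsin L are known to take part in the processing of cornification enzymes and in the upkeep of skin and hair.

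The cells were primary keratinocytes from the skin of mice labelled Sgpp1+/+ (WT, 5 arrays, numbered 1 to 5) or Sgpp1-/- (KO, 5 arrays, numbered 8, 9, 10, 21 and 23). Sgpp1 encodes sphingosine-1-phosphate phosphatase 1, and both groups were kept for 3 to 4 days in medium containing 0.05 mM calcium and 8% fetal calf serum, conditions that hold mouse keratinocytes largely in a basal state. The labels give no age or strain, and they do not say whether each array holds 1 animal or a separate culture, so p-values here cover just the spread among the arrays, which may be technical. The number of arrays limits the precision.

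The 10 arrays had medians of 5.03 to 5.17 on the log2 scale. The targeted gene was not lower where the labels say it is absent. Sgpp1 read 6.25, 7.82, 8.24, 8.33 and 7.70 on WT 1 to WT 5 and 8.46, 9.01, 8.69, 8.92 and 9.03 on KO 8, KO 9, KO 10, KO 21 and KO 23 (log2 signal; limma adjusted p = 0.102). The labels do not give the deleted part, so a probe set outside it would check nothing, and "WT" and "KO" stand throughout for arrays labelled so. Keratinocyte markers averaged 10.69 to 11.16 on every array, so the labelled cell type was borne out by its markers. WT 1 stood farthest from the other arrays, with a mean correlation of 0.955 across probe sets against at least 0.967 for each other array. WT 1, WT 2 and KO 8 read 7.36 to 9.22 for the immediate early gene Fosb, against 3.56 to 4.31 on the other 7.

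Of the 45 genes, 3 passed the test, all higher in KO. These were Ctsa, encoding the carboxypeptidase cathepsin A (1.81-fold), Atp6v0d1, encoding the V0 subunit d that couples the membrane ring to the V1 rotor (1.68-fold), and Atp6v0a1, encoding an isoform of the large V0 subunit a that carries the proton half-channels (1.66-fold). The test was limma's moderated test, its p-values adjusted by Benjamini-Hochberg over all 18193 genes, with 0.05 as the threshold. By the same test 2.30% of all genes were higher in KO. No member was called lower (0 of 45, against 0.346% of all genes), while at an unadjusted limma p under 0.05 2 were lower (5.65% of all genes) and 13 higher (7.33% of all genes). With array weights in the limma fit, 9 members were called higher (4.82% of all genes under that fit) and 1 lower (3.08%).

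The median KO minus WT difference of the 45 genes was 0.23 on the log2 scale, against -0.01 over all genes, and 31 of 45 differences were above 0 (68.9%, against 47.6% of all genes). By role, the median was 0.34 for the V1 sector, 0.23 for the V0 sector, 0.08 for the cathepsins and 0.41 for the LAMP genes. In 5 of 45 genes (11.1%, against 3.36% of all genes) every KO array lay above every WT array: Atp6v0a1, Atp6v0b, Atp6v1a, Ctsa and Ctsb. In 0 of 45 did every KO array lie below every WT array, against 1.02% of all genes. The 14 keratinocyte markers listed, which lie outside the 45, had a median difference of 0.22, with 12 above 0 (85.7%) and 0 called. In 2 of these markers (14.3%) every KO array lay above every WT array. Whether the 45 genes differed more than these markers was not tested. Array WT 1 was the lowest of the 10 arrays for 20 of the 45 genes. Without it the median of the 45 was 0.18, against 0.01 over all genes. Then 34 of the 45 differences were above 0, against 9387 of the 18193 over all genes. By role the median without WT 1 was 0.22 for the V1 sector, 0.24 for the V0 sector and 0.06 for the cathepsins. For the LAMP genes it was 0.25, which is the value of the dim gene Lamp5.

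**Figure D1:**
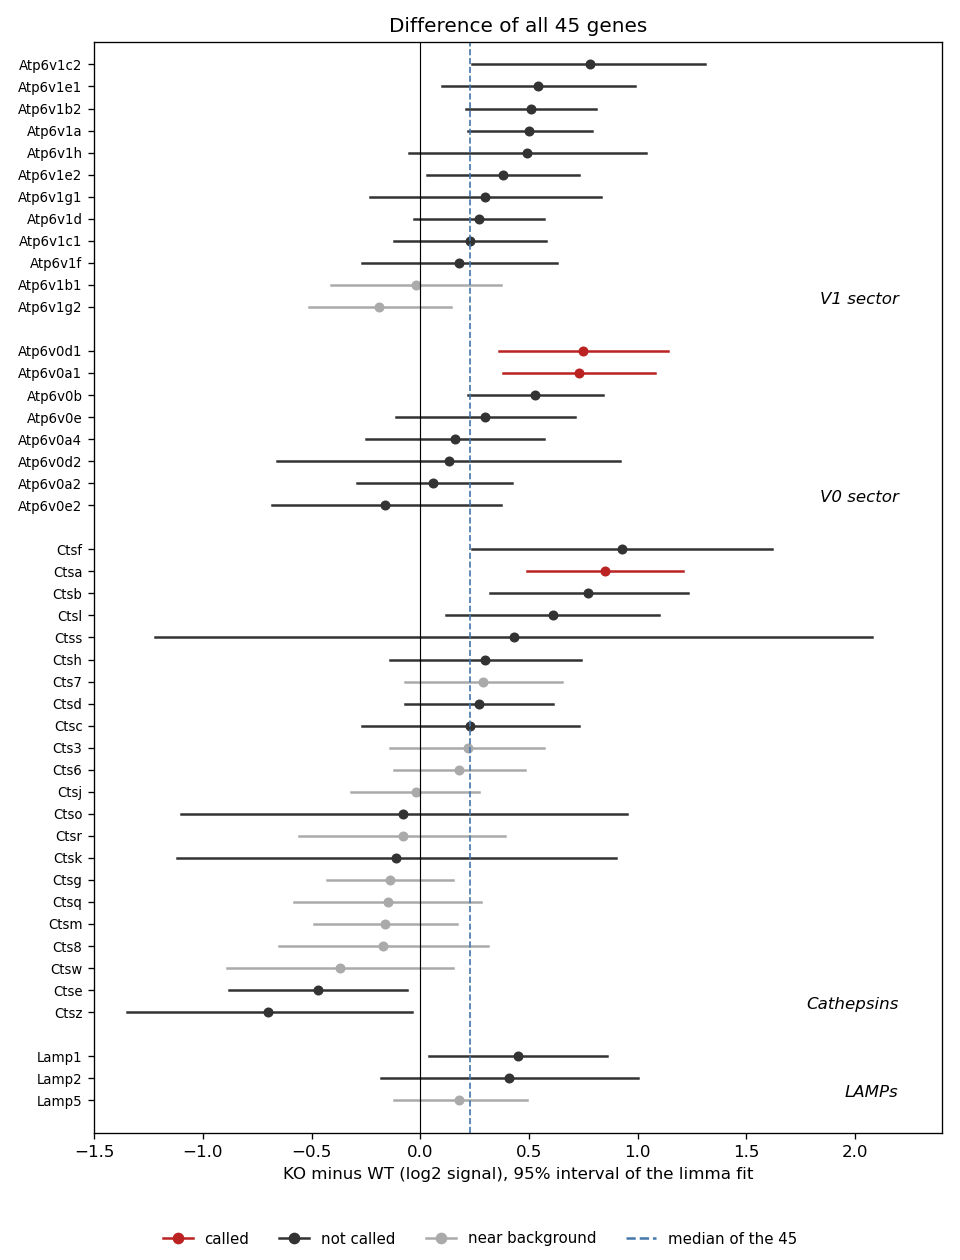
Difference between KO and WT in log2 signal (x axis) for each of the 45 genes, ordered within the 4 roles; points are limma estimates and bars their 95% intervals, from 5 WT and 5 KO arrays. The 3 called genes, in red, differ by 0.73 to 0.85, the dashed line marks the median of 0.23, and grey marks 13 genes near background.

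Differentiation genes moved between the same arrays. All 13 suprabasal keratinocyte markers listed, among them Dsc1, Calm4 and Ivl, rose, and their mean was 8.69 to 9.49 on WT arrays and 10.60 to 11.01 on KO arrays (log2 signal). The part of differentiation in the lysosomal differences was not tested.

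Of the melanocyte markers, all 8 listed had a higher mean in KO, with a median difference of 0.69, but 0 were called by limma and 0 were below an unadjusted p of 0.05. Their mean ran from 6.36 to 9.41 on WT arrays and from 7.66 to 9.14 on KO arrays. It was lowest on WT 1, the lowest array for 20 of the members. The part of melanocytes in the lysosomal differences was not tested.

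The palindrome TCACGTGA, built around the E-box CACGTG, is the centre of the element through which TFEB and its relatives are known to bind lysosomal gene promoters, so the start regions are shown before the values. RefSeq start regions (build GRCm38.p6, 250 bases before to 50 after a start) were matched for 35 of the 45 genes. Atp6v0a2, Atp6v0d2, Atp6v1b2, Atp6v1c1, Atp6v1g1, Atp6v1h, Ctsb, Ctse, Ctsh and Ctsw had no match. CACGTG, which reads the same on both strands, lay in the region of 9 of the 35 genes (25.7%), against 8.09% of the 27025 genes in the table. TCACGTGA, which also reads the same on both strands and contains CACGTG, lay in 5 of the 35 (14.3%), against 1.12% of all genes. The 9 were Atp6v0b, Atp6v0d1, Atp6v0e, Atp6v1a, Ctsa, Ctsd, Ctsf, Ctsl and Lamp1, and the 5 were Atp6v0d1, Atp6v0e, Atp6v1a, Ctsa and Ctsd. A match is a description of letters, not a measured binding site.

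The stretches below run from 120 bases before the start to 10 bases after it, 5′ to 3′ on the strand of the gene, with capitals on CACGTG or, where it is present, TCACGTGA. The first 3 belong to the called genes, and Ctsd and Lamp1 are shown as the protease and membrane glycoprotein most often used to mark lysosomes. They lie at chr8:105566055-105566184 on the minus strand (Atp6v0d1), chr2:164833653-164833782 on the plus strand (Ctsa), chr11:101010278-101010407 on the plus strand (Atp6v0a1), chr7:142387818-142387947 on the minus strand (Ctsd) and chr8:13159041-13159170 on the plus strand (Lamp1).
Atp6v0d1: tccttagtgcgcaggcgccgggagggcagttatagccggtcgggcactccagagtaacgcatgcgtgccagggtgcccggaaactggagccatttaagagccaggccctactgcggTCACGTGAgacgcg
Ctsa: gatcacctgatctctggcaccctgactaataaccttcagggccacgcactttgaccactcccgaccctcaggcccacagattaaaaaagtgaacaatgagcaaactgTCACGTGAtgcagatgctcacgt
Atp6v0a1: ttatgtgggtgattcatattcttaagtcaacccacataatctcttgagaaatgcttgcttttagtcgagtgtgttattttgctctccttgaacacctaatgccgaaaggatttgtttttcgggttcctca
Ctsd: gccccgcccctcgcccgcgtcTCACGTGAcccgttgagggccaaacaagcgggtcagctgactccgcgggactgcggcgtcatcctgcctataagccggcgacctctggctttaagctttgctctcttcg
Lamp1: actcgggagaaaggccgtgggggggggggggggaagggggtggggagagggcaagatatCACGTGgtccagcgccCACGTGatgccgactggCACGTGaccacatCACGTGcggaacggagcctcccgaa

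Both Atp6v0d1 and Ctsa, which rose, hold the longer palindrome close to the start, with CACGTG beginning 3 and 12 bases before it. Atp6v0a1, which also rose, holds neither in its region. Lamp1 holds 4 copies of CACGTG and Ctsd holds 2, of which the one beginning 98 bases before the start is shown, and neither gene was called. Atp6v0e and Atp6v1a also hold TCACGTGA and were not called, so 3 of the 5 genes with the longer palindrome were not called. A second copy of CACGTG at Ctsa begins 5 bases after the start and is cut by the end of the stretch, and another listed start of Ctsa holds none. Among genes not shown, Lamp2 holds no copy, and the only copy at Ctsl begins 236 bases before the start. The stretches shown therefore hold CACGTG more often than the members as a whole (25.7% of those matched).

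The V0 sector held both called pump genes (2 of 8 higher in KO, 25.0%, against 2.30% of all genes). Atp6v0a1 read 8.67, 8.30, 8.58, 8.58 and 8.62 on WT 1 to WT 5 and 9.01, 9.25, 9.21, 9.81 and 9.13 on KO 8, KO 9, KO 10, KO 21 and KO 23 (log2 signal, as for all array values here, in the same order). Each KO array exceeded each WT array, with KO 21 the highest. The means were 8.55 ± 0.15 and 9.28 ± 0.31 (SD, n = 5 each), a log2 difference of 0.73 (SE 0.16, limma adjusted p = 0.0301). Its 3 other probe sets differed by 1.21, 0.70 and 0.40, and 2 of these, the larger ones, passed when every probe set was tested by itself. The call was lost when WT 2, WT 3, WT 4, WT 5, KO 9 or KO 10 was left out (limma adjusted p 0.051 to 0.0821), while the difference stayed between 0.67 and 0.75 there.

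Atp6v0d1 read 8.58, 8.86, 9.19, 8.90 and 8.88 in WT and 9.08, 9.87, 9.90, 9.49 and 9.82 in KO. KO 8 lay below WT 3, and the other KO arrays lay above every WT array. The means were 8.88 ± 0.22 and 9.63 ± 0.35 (SD, n = 5 each), a log2 difference of 0.75 (SE 0.18, limma adjusted p = 0.0471). It has no other probe set, and it was not called when every probe set on the arrays was tested by itself (limma adjusted p = 0.0631). The call was lost without WT 1, WT 2, WT 4, WT 5, KO 9, KO 10, KO 21 or KO 23 (limma adjusted p 0.0759 to 0.152), with differences of 0.68 to 0.79.

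Atp6v0b encodes the c″ proteolipid of the rotating membrane ring. It read 9.82, 9.80, 9.77, 9.49 and 9.94 in WT and 10.03, 10.43, 10.38, 10.10 and 10.54 in KO. The groups did not overlap, but the difference of 0.53 (SE 0.14) did not pass over all genes (limma adjusted p = 0.0829). Atp6v0e, encoding the small V0 subunit e, read 8.54, 9.52, 9.17, 8.94 and 8.95 in WT and 9.36, 9.45, 9.40, 8.89 and 9.55 in KO. Its groups overlapped and its difference was 0.30 (95% interval -0.11 to 0.71, limma adjusted p = 0.586). It was 0.18 without WT 1 and 0.43 without WT 2.

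The other V0 genes encode alternative isoforms of the same subunits. Atp6v0a2, an isoform of subunit a known from the Golgi and endosomes, differed by 0.06 (95% interval -0.29 to 0.42). Atp6v0a4, the isoform a of kidney intercalated cells, differed by 0.16, Atp6v0d2, the isoform d of osteoclasts and kidney, by 0.13, and Atp6v0e2 by -0.16. None of these 4 passed (limma adjusted p 0.832 to 0.944). Atp6v0a4 and Atp6v0e2 were dim, with means of 4.34 and 4.29 in WT and 4.51 and 4.13 in KO. These means lie close to 4.2, the limit for near background given below. Without WT 1, Atp6v0a4 differed by 0.30 and Atp6v0d2 by -0.04. Whether isoform a1 differed more than a2 or a4 was not tested.

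In the V1 sector 0 of 12 genes were called higher by limma (2.30% of all genes) and 0 lower (0.346% of all genes). At an unadjusted limma p under 0.05, 5 were higher (7.33% of all genes) and 0 lower (5.65% of all genes). Atp6v1a and Atp6v1b2 encode the A and B subunits, which together form the ring that splits ATP. Atp6v1a read 9.27, 9.68, 9.70, 9.48 and 9.70 in WT and 9.85, 10.09, 10.13, 10.14 and 10.15 in KO. The groups did not overlap, and the difference was 0.50 (SE 0.13, limma adjusted p = 0.0737). A second Atp6v1a probe set differed by 0.78.

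Atp6v1b2 read 9.43, 9.99, 9.67, 9.70 and 9.80 in WT and 10.29, 10.33, 10.22, 9.98 and 10.33 in KO. The groups met only at WT 2 and KO 21, and the difference was 0.51 (SE 0.14, limma adjusted p = 0.0823). Its 3 other probe sets differed by 0.83, 0.25 and 1.06. When all probe sets of a gene were averaged, Atp6v1b2 passed, at 0.66 with a limma adjusted p of 0.0333.

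Atp6v1c2 encodes an isoform of the stalk subunit C with a restricted tissue range. It read 6.86, 7.39, 6.95, 6.88 and 7.62 in WT and 7.71, 8.58, 8.13, 7.16 and 8.00 in KO. KO 21 alone lay inside the WT range, and the difference of 0.78 (SE 0.25) did not pass (limma adjusted p = 0.153). Without KO 21 it was 0.97 and passed, with a limma adjusted p of 0.0452. In every other fit that left out 1 array it did not pass (limma adjusted p 0.108 to 0.377). The widely expressed isoform Atp6v1c1 differed by 0.23 (95% interval -0.12 to 0.58) and by 0.15 without WT 1, and the difference between the isoforms was not tested.

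Atp6v1e1, encoding the peripheral stalk subunit E, read 9.06, 10.12, 9.80, 9.45 and 9.61 in WT and 10.34, 10.36, 10.05, 9.69 and 10.32 in KO. KO 10 and KO 21 fell within the WT range, and the difference was 0.54 (SE 0.20, limma adjusted p = 0.243). The remaining V1 genes did not pass either. Atp6v1h, the regulatory subunit H, differed by 0.49, Atp6v1e2 by 0.38, Atp6v1g1 by 0.30, Atp6v1d of the central shaft by 0.27 and Atp6v1f of the same shaft by 0.18. Without WT 1, Atp6v1g1 differed by 0.05, Atp6v1d by 0.18 and Atp6v1h by 0.25. Atp6v1b1, the kidney and inner ear isoform of subunit B, and Atp6v1g2, the neuronal isoform of subunit G, were near background and differed by -0.02 and -0.19. Near background means a mean in both groups of at most 4.2, the 95th percentile of 39 olfactory receptor genes on these arrays. Atp6v1e2 was also dim, with means of 4.33 in WT and 4.71 in KO.

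**Figure D2:**
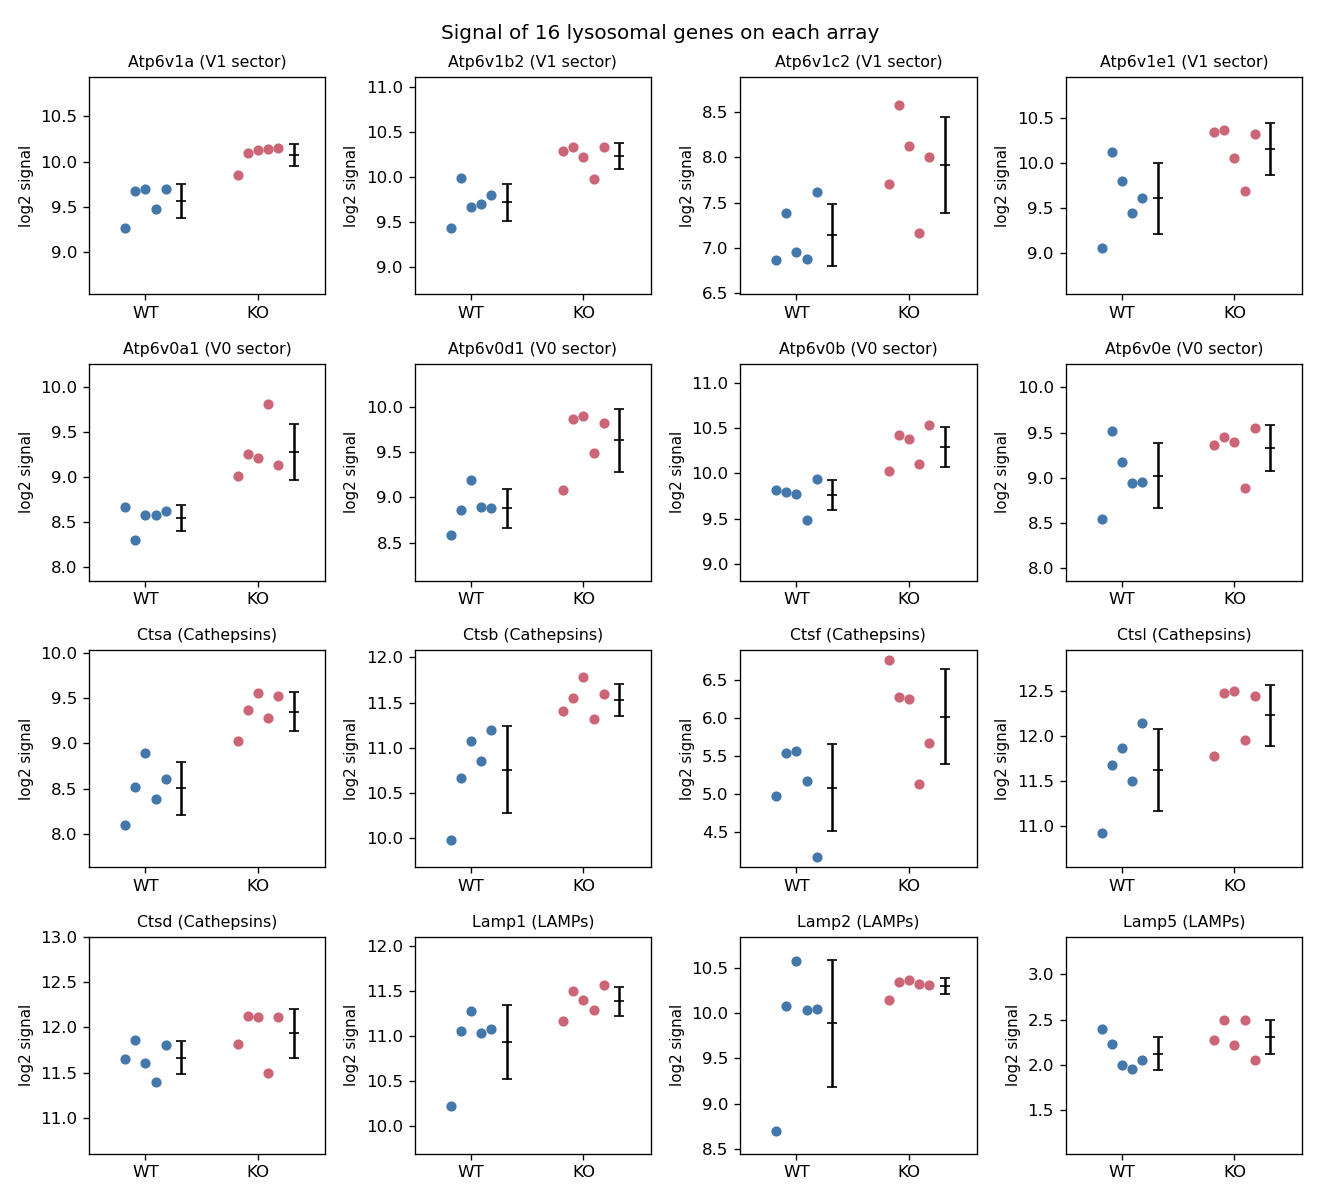
Log2 signal (y axis, range set per panel) of 16 genes on 5 WT and 5 KO arrays; each point is 1 array, and the black bar gives mean ± SD. Points lie in the order WT 1 to WT 5 and KO 8, KO 9, KO 10, KO 21, KO 23. The groups do not overlap for Atp6v0a1, Atp6v0b, Atp6v1a, Ctsa and Ctsb. WT 1 is the lowest point for Atp6v0d1, Atp6v0e, Atp6v1a, Atp6v1b2, Atp6v1c2, Atp6v1e1, Ctsa, Ctsb, Ctsl, Lamp1 and Lamp2.

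Among the cathepsins 1 of 22 was called higher (4.55%, against 2.30% of all genes) and 0 lower (0.346% of all genes). At an unadjusted limma p under 0.05, 4 were higher (7.33% of all genes) and 2 lower (5.65% of all genes). Cathepsin A, encoded by Ctsa, is a serine carboxypeptidase that also shields beta-galactosidase and neuraminidase 1 from breakdown. Ctsa read 8.10, 8.52, 8.89, 8.39 and 8.61 in WT and 9.03, 9.37, 9.56, 9.28 and 9.52 in KO. Each KO array exceeded each WT array. The means were 8.50 ± 0.29 and 9.35 ± 0.21 (SD, n = 5 each), a log2 difference of 0.85 (SE 0.17, limma adjusted p = 0.0142). Of the fits that left out 1 array, only the one without KO 10 ended the call (0.80, limma adjusted p = 0.0524). A second, dimmer Ctsa probe set differed by 0.26, and with the mean of both the gene was not called (0.56, limma adjusted p = 0.105).

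Cathepsin B, a cysteine protease and one of the main lysosomal ones, came next by adjusted p. Ctsb read 9.98, 10.67, 11.08, 10.85 and 11.20 in WT and 11.41, 11.55, 11.78, 11.32 and 11.59 in KO. The groups did not overlap, and WT 1 was the lowest. The difference was 0.77 (SE 0.21, limma adjusted p = 0.0835) and without WT 1 it was 0.58 (limma adjusted p = 0.0691). Its 4 other probe sets differed by 0.40 to 0.93, and with all 5 averaged Ctsb passed, at 0.72 with a limma adjusted p of 0.0402. It also passed with Y-linked signal, which 4 arrays carried, as a block (limma adjusted p = 0.0398). Ctsb passed in 3 of the 18 alternative fits, and in none that left out 1 array (limma adjusted p 0.0516 to 0.223). With WT 1, WT 2 and KO 8 left out together its difference was 0.52 (limma adjusted p = 0.148).

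Cathepsin F is another cysteine protease. Ctsf read 4.98, 5.54, 5.56, 5.17 and 4.17 in WT and 6.76, 6.28, 6.25, 5.13 and 5.67 in KO. KO 21 lay within the WT range, and the difference of 0.93, the largest of the 45, did not pass (SE 0.32, limma adjusted p = 0.193). A dimmer probe set of Ctsf differed by -0.07, and with both averaged the difference was 0.43.

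Cathepsin L is the protease whose loss causes the furless mouse. Ctsl read 10.93, 11.68, 11.87, 11.50 and 12.14 in WT and 11.78, 12.48, 12.50, 11.96 and 12.44 in KO. KO 8 and KO 21 fell within the WT range, and the difference was 0.61 (SE 0.23, limma adjusted p = 0.241). Without WT 1 it was 0.44.

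Cathepsin D, the main aspartic protease of lysosomes, was not called. Ctsd read 11.65, 11.86, 11.61, 11.40 and 11.81 in WT and 11.82, 12.13, 12.11, 11.50 and 12.11 in KO. The groups overlapped, and the difference was 0.27 (95% interval -0.07 to 0.61, limma adjusted p = 0.547). Ctsh, encoding an aminopeptidase, differed by 0.30, and Ctsc, encoding the dipeptidyl peptidase that activates granule serine proteases, by 0.23. Neither passed (limma adjusted p 0.633 and 0.793), and the Ctsc difference was 0.02 without WT 1 and -0.13 without WT 1, WT 2 and KO 8.

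The cathepsins with the lowest adjusted p among those with a negative difference were Ctsz and Ctse. Ctsz, encoding a carboxypeptidase, read 8.63, 8.92, 9.72, 9.19 and 9.49 in WT and 7.79, 8.51, 8.39, 8.18 and 9.58 in KO. Of the KO arrays, 4 lay below every WT array, and KO 23 lay above all WT arrays but WT 3. The difference was -0.70 (SE 0.30, limma adjusted p = 0.342), and its 2 other probe sets differed by -0.73 and -0.76. With array weights Ctsz was called lower.

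Ctse encodes cathepsin E, an aspartic protease of epithelial and immune cells outside the classical lysosome. It read 8.52, 7.96, 8.71, 8.72 and 8.64 in WT and 7.83, 7.72, 8.36, 8.36 and 7.93 in KO. WT 2 lay among the KO values, and the difference was -0.47 (SE 0.19, limma adjusted p = 0.282). A second Ctse probe set, near background, differed by 0.10.

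Ctss and Ctsk varied more between arrays of a group than between the groups. Cathepsin S trims the invariant chain of class II molecules in antigen-presenting cells. Ctss read 5.76, 8.05, 9.14, 8.83 and 10.83 in WT and 8.10, 8.64, 8.53, 8.77 and 10.72 in KO, so that WT 5 and KO 23 were high and WT 1 low. The 14 myeloid and Langerhans cell markers were also highest on WT 5 and KO 23, with means of 5.63 and 5.40 against 4.28 to 4.77 elsewhere. WT 1, lowest for Ctss, was not low for them, at 4.77. The melanocyte mean was also highest on WT 5 and KO 23, at 9.41 and 9.14, and lowest on WT 1, at 6.36. Between the groups the Ctss difference was 0.43 (95% interval -1.22 to 2.08), and -0.26 without WT 1. None of the 14 markers was called (0 of 14, limma; 1 was lower at an unadjusted p under 0.05), and 7 of them, Ptprc, Cd14, Adgre1, Itgam, H2-Aa, H2-Ab1 and Cd207, were near background. Their mean ran from 4.47 to 5.63 in WT and from 4.28 to 5.40 in KO. In such bulk samples fewer cells of a type and less RNA per cell cannot be told apart, and the part of myeloid cells or melanocytes in the Ctss values was not tested.

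Cathepsin K degrades collagen and is best known from osteoclasts, and fibroblasts also make it. Ctsk read 3.66, 4.81, 6.30, 5.54 and 3.72 in WT and 4.10, 5.32, 4.51, 4.33 and 5.24 in KO. WT 3 and WT 4 were the highest, and they also had the highest mean of 8 fibroblast markers, 8.81 and 8.54. WT 1 and WT 5, the lowest for Ctsk, had means of 6.03 and 5.91. The fibroblast mean ran from 5.91 to 8.81 in WT and from 6.01 to 7.68 in KO. By limma 0 of the 8 markers were called, 1 was lower at an unadjusted p under 0.05, and Lum alone was near background. The part of fibroblasts in the Ctsk values was not tested. The Ctsk difference was -0.11 (95% interval -1.12 to 0.90), and -0.39 without WT 1. Without WT 3 or without WT 4 it turned positive, so its sign depended on single arrays. Ctso, encoding cathepsin O, ran from 2.70 on WT 1 to 5.61 on KO 23 and differed by -0.08, or by -0.54 without WT 1. Without WT 3, its highest WT array, the Ctso difference turned positive.

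**Figure D3:**
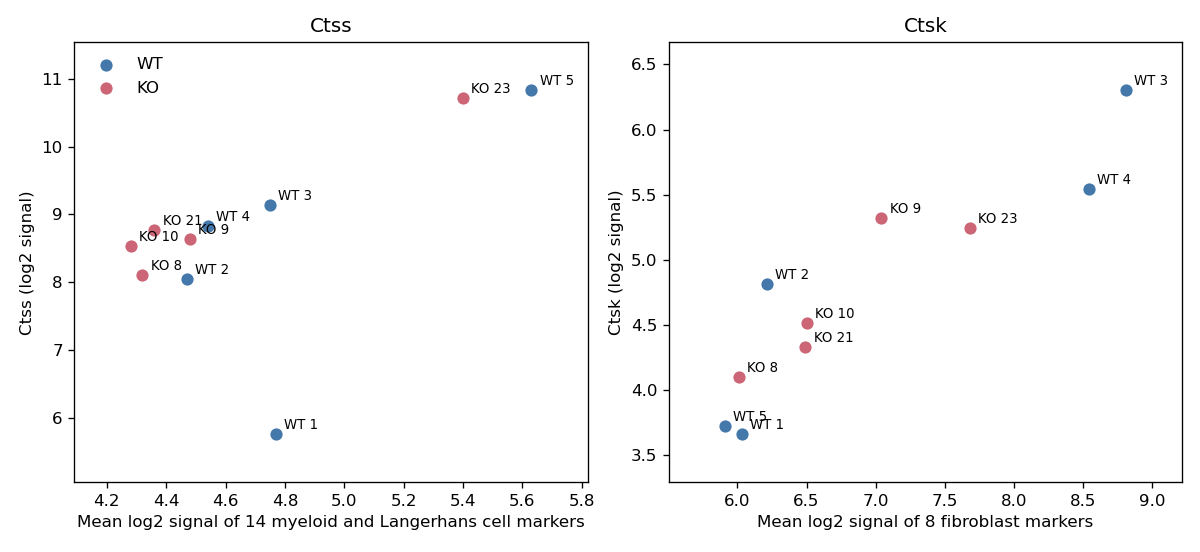
Ctss against the mean of 14 myeloid and Langerhans cell markers (left) and Ctsk against the mean of 8 fibroblast markers (right), in log2 signal, 1 point per array, 5 WT and 5 KO. WT 5 and KO 23 are highest on both axes at the left, WT 3 and WT 4 on both axes at the right.

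The rest of the cathepsin family was near background. Cts3, Cts6, Cts7, Cts8, Ctsj, Ctsm, Ctsq and Ctsr belong to the rodent cluster expressed in the placenta, and their array values lay between 1.79 and 4.07. Their differences ran from -0.17 to 0.29 and none passed (limma adjusted p 0.533 to 0.977). Ctsg, the neutrophil and mast cell protease cathepsin G, and Ctsw, the cathepsin of natural killer and cytotoxic T cells, were near background too, with differences of -0.14 and -0.37. The listed markers of mast cells (7 measured, mean 3.33 to 3.64 per array) and of T and natural killer cells (8 measured, mean 3.81 to 4.56) held 0 called genes, and 0 were below an unadjusted limma p of 0.05.

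LAMP1 and LAMP2 are the most abundant glycoproteins of the lysosomal membrane, and LAMP2 also serves as a receptor in chaperone-mediated autophagy. Lamp1 read 10.23, 11.06, 11.28, 11.03 and 11.08 in WT and 11.17, 11.50, 11.40, 11.29 and 11.57 in KO. WT 1 stood well below the rest, KO 8 lay below WT 3, and the other 4 KO arrays lay above all WT arrays. The difference was 0.45 (SE 0.19, 95% interval 0.04 to 0.86, limma adjusted p = 0.313), and 0.27 without WT 1. Lamp2 read 8.70, 10.08, 10.58, 10.04 and 10.05 in WT and 10.15, 10.35, 10.37, 10.32 and 10.31 in KO. WT 1 was again the lowest, WT 3 was the highest of all 10 arrays, and the KO arrays lay close together. The difference was 0.41 (SE 0.27, limma adjusted p = 0.62) and fell to 0.11 without WT 1, and the 3 other probe sets differed by 0.45, 0.49 and 0.58. Lamp5, a LAMP of neurons and plasmacytoid dendritic cells, was near background at 2.39, 2.23, 2.0, 1.95 and 2.05 in WT and 2.27, 2.49, 2.22, 2.49 and 2.05 in KO, a difference of 0.18.

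**Figure D4:**
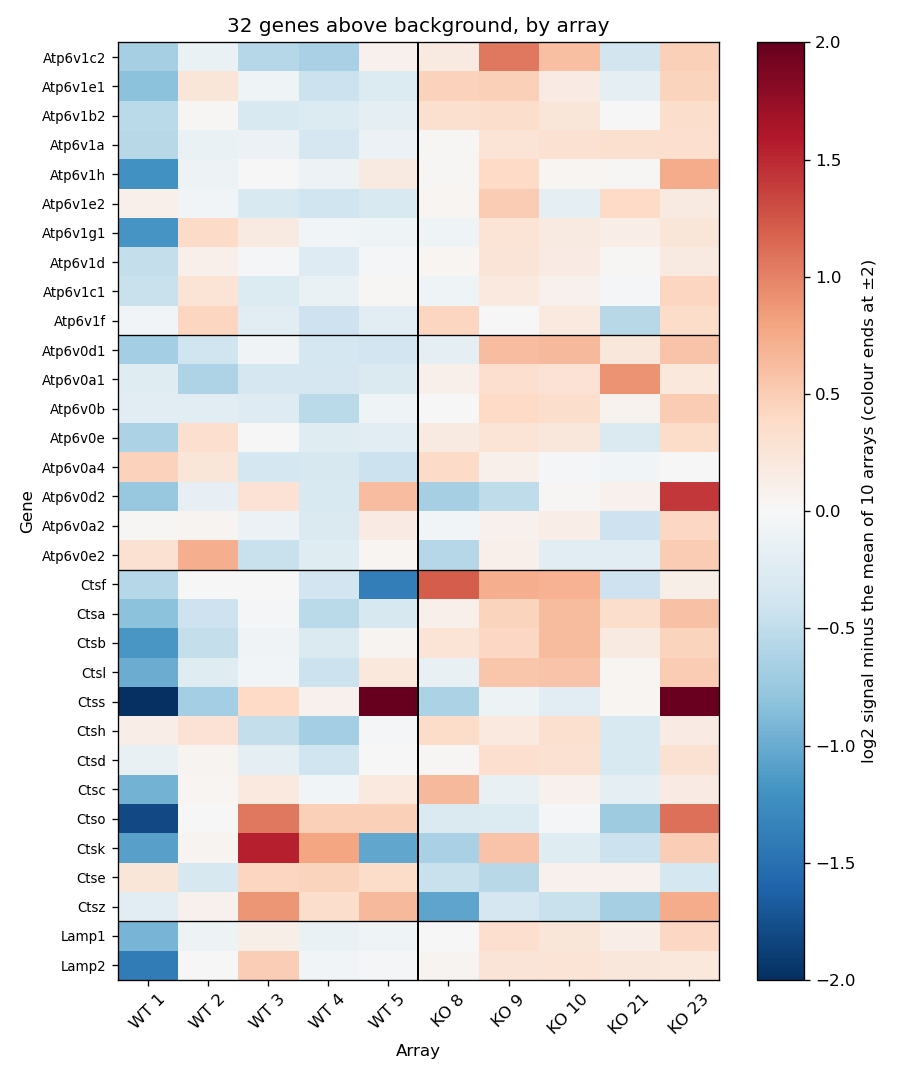
Log2 signal of the 32 genes not near background on each array (columns, WT left and KO right of the line), minus the mean over the 10 arrays; rows are grouped into V1 sector, V0 sector, cathepsins and LAMPs from top to bottom, and colour ends at ±2. WT 1 was the lowest array for 20 of these genes, and WT 5 and KO 23 stand out for Ctss.

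Over the 42 other probe sets of the 23 members that have several, 38 differed in the same direction as the brightest one. Probe sets of 4 genes held an opposite sign, among them Ctsf and Ctse.

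Other genes of the lysosome were read as lists by function. For the counts of these lists, the shares over all genes were 2.30% called higher and 0.346% called lower by limma. At an unadjusted limma p under 0.05 the shares were 7.33% higher and 5.65% lower. All genes include 5312 near background, so these shares are not matched to the lists for brightness. Of 13 measured genes for V-ATPase subunits outside the rule, accessory proteins and assembly factors, 0 were called by limma (1 higher and 0 lower at an unadjusted p under 0.05), with a median difference of 0.16. Wdr7, linked to the rabconnectin complex that reassembles the pump, had the lowest adjusted p (0.59, limma adjusted p = 0.314). For 24 lysosomal membrane proteins and transporters the median was 0.29. At an unadjusted limma p under 0.05, 8 of them were higher and 0 lower. By adjusted p, 1 rose and 0 fell. The 1 was Ctns, encoding the cystine exporter cystinosin, which read 6.74 ± 0.16 in WT and 7.70 ± 0.37 in KO (SD, n = 5 each), 1.94-fold higher with a limma adjusted p of 0.0105.

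Of 12 lysosomal lipid enzymes and activators, 2 rose and 0 fell, with a median of 0.19. At an unadjusted limma p under 0.05, 3 were higher and 0 lower. Smpd1, encoding acid sphingomyelinase, rose by 0.92, and Pld3, encoding a lysosomal exonuclease of the phospholipase D family, rose from 7.90 ± 0.16 to 8.77 ± 0.21 (SD, n = 5 each, limma adjusted p = 0.0046). Of 19 glycosidases and sulfatases 0 were called (1 higher and 0 lower at an unadjusted limma p under 0.05; median 0.24), and Manba, encoding beta-mannosidase, differed by 1.07 (limma adjusted p = 0.0538) with groups that did not overlap. Of 12 other lysosomal proteases and helpers 0 were called (2 higher and 0 lower at an unadjusted limma p under 0.05; median 0.13). Scpep1, a carboxypeptidase gene related to Ctsa, differed by 1.15 there (limma adjusted p = 0.0602), also without overlap.

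Stefins, cystatins and some serpins restrain cysteine cathepsins. Of 10 measured inhibitor genes 3 rose and 0 fell, with a median of 0.57. At an unadjusted limma p under 0.05, 6 were higher and 1 was lower. The lower one was Ctla2b, at -0.68, which is among the 4 inhibitor genes near background. Csta1 and Stfa3, which encode cytosolic stefins, rose from 8.54 ± 0.53 to 10.09 ± 0.29 and from 11.52 ± 0.57 to 12.63 ± 0.21 (SD, n = 5 each), or 2.94-fold and 2.17-fold. The stefin A genes are near-identical, and their signals may be shared. Serpinb3a, encoding a serpin that inhibits papain-like proteases, rose from 3.49 ± 0.63 to 6.04 ± 0.73 (SD, n = 5 each, limma adjusted p = 0.00189), and its WT mean lies below 4.2, the 95th percentile of the olfactory receptor genes. Stefins and serpins of this kind are also known products of differentiating keratinocytes.

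Of 22 genes that sort enzymes to the lysosome 0 were called (2 higher and 1 lower at an unadjusted limma p under 0.05), with a median of 0.15. Sort1, encoding the sorting receptor sortilin, differed by 0.84 (limma adjusted p = 0.0602). Of 18 genes for the MiT/TFE transcription factors and the lysosomal control of mTORC1, 0 were called (2 higher and 1 lower at an unadjusted limma p under 0.05), with a median of 0.17. Rragd, encoding a Rag GTPase, differed by 0.60 (limma adjusted p = 0.151).

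**Figure D5:**
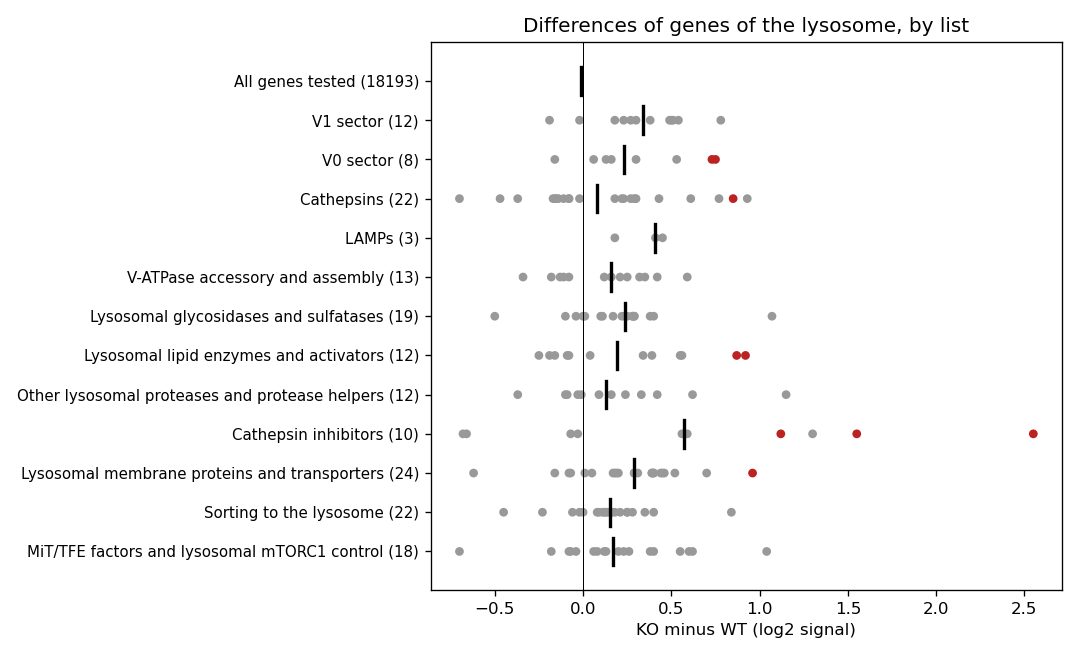
KO minus WT difference in log2 signal (x axis) for genes of the lysosome by list, with the number measured in brackets; each point is 1 gene, red where called by limma, and the black bar is the list's median. The medians of these lists lie between 0.08 and 0.57, against -0.01 for all genes tested, whose single points are not drawn. The -0.01 is not matched for brightness, as 5312 of the 18193 genes are near background against 0 in several lists.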

How the data were processed

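RNA of 10 samples, 5 per group by their titles, was hybridised to 1-colour Affymetrix mouse arrays. The deposited values are log2 signals made by the authors with RMA, per the submitters' processing notes; the software version is not given in the sources used here. RMA gives all arrays 1 intensity distribution and compresses differences of dim genes, so those are understated and a shift common to most genes cannot be seen. Of 45101 probe sets, 34945 were annotated to 1 gene, and symbols were updated through RefSeq's gene table (GRCm38.p6; 34741 matched). The brightest probe set per gene gave 18193 genes. Differences are KO minus WT from limma's lmFit and eBayes (version 3.58.1, under R 4.3.3; two-sided), with Benjamini-Hochberg adjustment over all genes. SE is the moderated standard error. The fit was tested on simulated data. All 10 columns of values were used. The number of arrays limits the precision. Alternatives covered the choice of probe sets, dim genes, centring, the limma settings, Y-linked signal as a block and arrays left out.

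The genes and lists were chosen with earlier results of these data known. Array values are given for members that passed, the 4 members with the smallest adjusted p in each role, and Lamp1, Lamp2, Ctsb, Ctsd and Ctsl. From other lists up to 3 called genes are named, or the 1 with the smallest adjusted p. Values on each array for Ctsz, Ctse, Ctss and Ctsk were added after they were seen. WT samples hold array positions 1 to 5 in the titles and KO samples the other 5, so position and group cannot be told apart.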

Additional observations from a re-analysis of the deposited data

Results flagged for a closer look

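Each of the 45 genes was examined in each group for an array far from the other 4, which chance gives in about 1 of 20 groups, and 12 of 90 groups held one. WT 1 accounted for 6 of them. It read 6.63 for Atp6v1h (others 7.75 to 8.03), 7.87 for Ctsc (8.75 to 9.01), 10.23 for Lamp1 (11.03 to 11.28) and 8.70 for Lamp2 (10.04 to 10.58), all low, and 2.50 for Ctsj and 3.95 for Ctsq, both high for genes near background. WT 2 accounted for 3, at 8.30 for Atp6v0a1 (others 8.58 to 8.67), 7.96 for Ctse (8.52 to 8.72) and 3.00 for Ctsg. KO 8 read 9.85 for Atp6v1a (others 10.09 to 10.15) and 10.15 for Lamp2 (10.31 to 10.37). KO 23 read 10.72 for Ctss (others 8.10 to 8.77).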

How the results depend on the processing

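The 16 genes chosen by rule to be given by array kept the sign of their difference under the 18 alternative fits, except that Ctsf and Lamp5 had no value under the filter on dim genes. Of the 4 added later, Ctss turned from 0.43 to -0.26 without WT 1. Ctsk, at -0.11 with all arrays, turned positive without WT 3 or without WT 4. Over all 45 members, 33 kept their sign throughout. The count of 3 members called higher was 9 with array weights, a fit that calls 877 genes higher and 561 lower over all genes against 419 and 63, and 0 under a rule of at least 1 on the log2 scale without overlap. It ran from 0 to 3 when 1 array was left out, at 1 without WT 2, WT 4, WT 5 or KO 9 (Ctsa) and 0 without KO 10. With WT 1, WT 2 and KO 8 left out together it was 2, Atp6v0d1 and Ctsa, and with arrays centred on their median it was also 2. The count called lower was 0 throughout, also with each array left out, except for 1 with array weights. The median of 0.23 ran from 0.18 to 0.31 with 1 array left out and was 0.43 over the 25 members above the median gene mean, a filter that removes the dim genes. The median over all genes kept by that filter is not given here, so the 0.43 has no matched value beside it. No paired analysis was possible because the groups share no replicate numbers. Signal near background limits what 13 of the genes can show.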
